A study of Rattus norvegicus with 10 samples.

Results

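Interleukin-1, tumour necrosis factor (TNF) and the transcription factor NF-kappaB form the core signalling route of innate inflammation. Of 10 genes of this route, 9 were found by symbol among the 23824 features of a hippocampal RNA sequencing table, after rows with the same symbol had been summed in each library. The genes were 4 ligands (Il1b, Il18, Il33 and Tnf), 2 receptors (Il1r1 and Tnfrsf1a), the NF-kappaB subunit Rela, the NF-kappaB inhibitor Nfkbia and the RNA-binding protein Arid5a. Nfkb1, which encodes a second NF-kappaB subunit, was not analysed here. The tissue was hippocampus of male Sprague Dawley rats of 200 to 240 g, with no age given in the sources used here. One group of 5 libraries came from rats given a traumatic brain injury (TBI) by fluid percussion, a pressure pulse of fluid onto the dura, and the other 5 from rats given sham surgery. All tissue was taken 1 week after surgery, following a learning test that both groups went through. The labels do not state that each library is a separate animal, so p-values reflect the spread between libraries, which may be partly technical.

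In this route a ligand binds its receptor at the cell surface, adaptor proteins and kinases then mark the inhibitor encoded by Nfkbia for destruction, and the released NF-kappaB dimer enters the nucleus. Nfkbia is itself a classical NF-kappaB target, so the pathway restrains its own activity. In brain, microglia are a main source of interleukin-1 beta and TNF, while endothelial and other barrier cells carry the interleukin-1 receptor.

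NF-kappaB binds a degenerate ten-base DNA motif, the kappaB consensus, and the 250 bases upstream of each start site in RefSeq (GRCr8 build) were searched for it on both strands. A match was present in 6.33% of 33469 rat promoters. All 10 genes had an entry, 11 promoters in all, and matches were found for Nfkbia and Il1r1. These 2 are shown together with Arid5a, the gene whose groups did not overlap. Capitals mark the match, and each line runs 5′ to 3′ on the gene's own strand.
Nfkbia, chr6:78597073-78597322, minus strand: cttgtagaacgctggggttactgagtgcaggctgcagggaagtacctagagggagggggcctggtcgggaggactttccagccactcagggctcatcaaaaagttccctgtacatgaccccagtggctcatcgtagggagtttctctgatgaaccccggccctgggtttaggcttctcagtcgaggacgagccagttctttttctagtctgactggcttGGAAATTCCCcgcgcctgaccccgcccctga
Il1r1, chr9:50034133-50034382, plus strand: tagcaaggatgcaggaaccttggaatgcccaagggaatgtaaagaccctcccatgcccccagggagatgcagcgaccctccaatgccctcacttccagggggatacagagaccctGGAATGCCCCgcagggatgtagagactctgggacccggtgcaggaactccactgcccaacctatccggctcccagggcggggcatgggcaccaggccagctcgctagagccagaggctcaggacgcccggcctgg
Arid5a, chr9:46030329-46030578, plus strand: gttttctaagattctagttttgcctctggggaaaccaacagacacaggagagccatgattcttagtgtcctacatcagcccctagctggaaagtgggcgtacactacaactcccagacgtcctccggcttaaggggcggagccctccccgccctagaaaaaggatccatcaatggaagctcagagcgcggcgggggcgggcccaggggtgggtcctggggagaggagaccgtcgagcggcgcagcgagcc
The match began 31 bases upstream of the start site in Nfkbia and 135 bases upstream in Il1r1. No match was present in the Arid5a window. A match describes letters and not occupancy, and these coordinates are of another build than the rn5 build named for the expression values.

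Levels are FPKM, fragments per kilobase of transcript scaled to library size, so they may be compared between genes. Over the 10 libraries Nfkbia had a mean of 16.4 FPKM, Il33 of 13.5, Rela of 10.7, Tnfrsf1a of 6.76, Arid5a of 3.67, Il1r1 of 2.61, Il18 of 2.39 and Il1b of 0.176. Il33 lay above Rela, and Rela above Tnfrsf1a, in 10 of 10 libraries. Neighbours that changed places between libraries were Nfkbia and Il33 (Nfkbia higher in 8 of 10), Tnfrsf1a and Arid5a (9 of 10), Arid5a and Il1r1 (8 of 10), and Il1r1 and Il18 (5 of 10). Tnf is left out of this order because its symbol stands on 4 rows of very different level, described below.

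**Figure D1:**
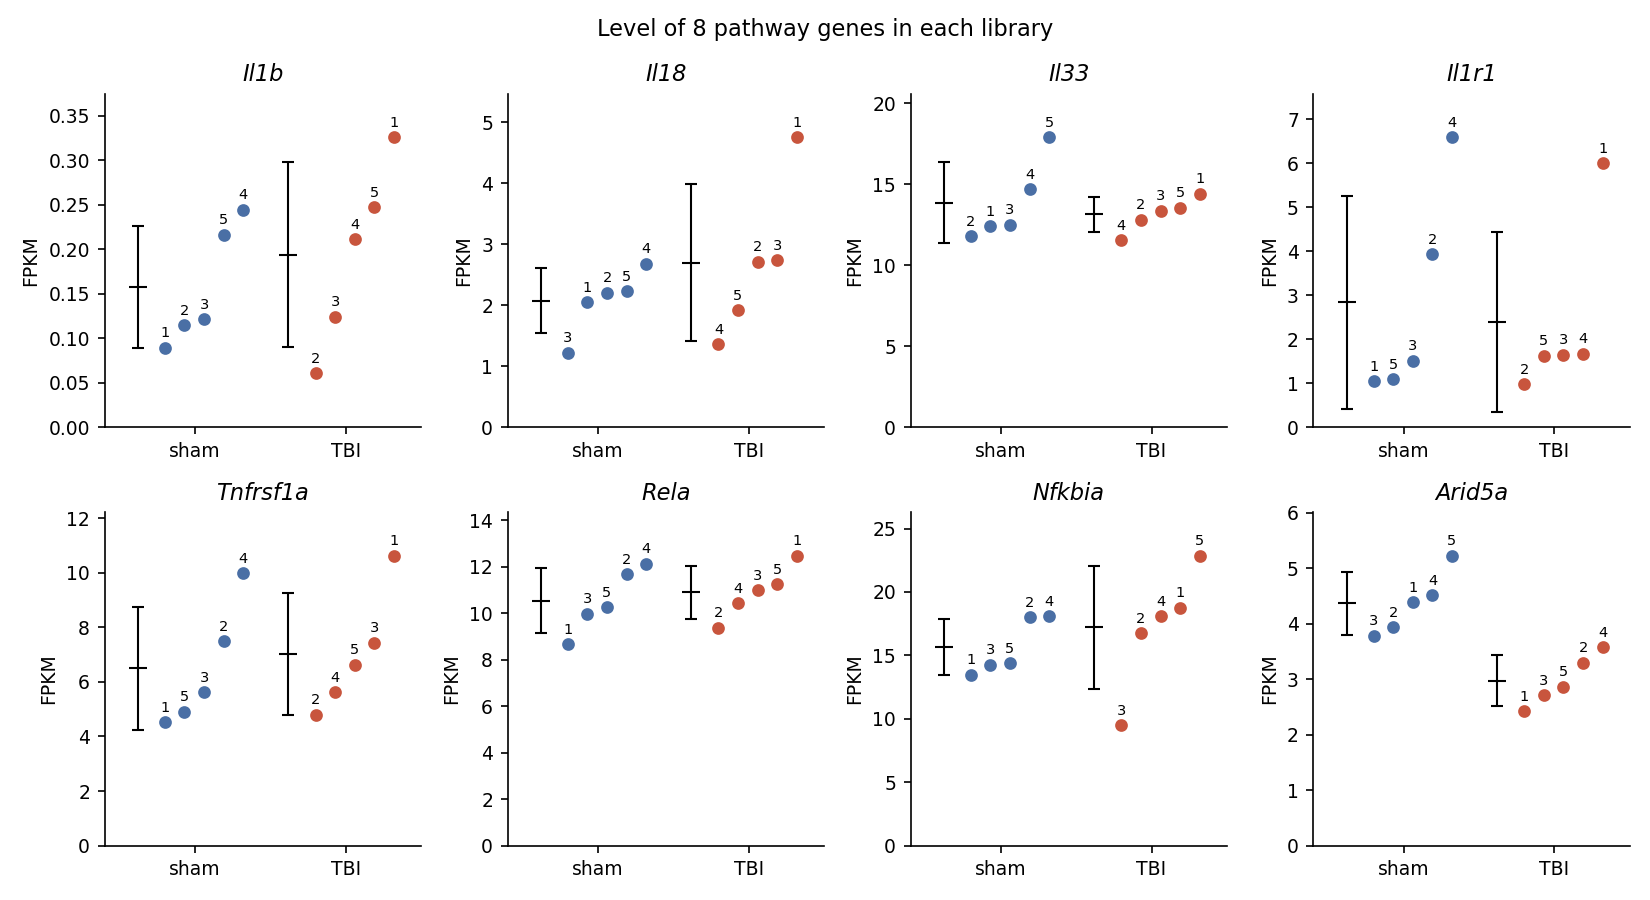
FPKM (vertical axis, from 0, a separate scale for each gene) of 8 genes in 5 sham (blue) and 5 TBI (red) libraries; each dot is a library with its replicate number, and black marks give the mean ± SD. Only in Arid5a do the 5 TBI dots, at 2.42 to 3.57, all lie below the 5 sham dots, at 3.78 to 5.23.

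Whether these genes differ 1 week after the injury was read from the 5 TBI and 5 sham libraries. Of the 9 genes, Arid5a was the 1 whose groups did not overlap, and it was lower after TBI. The other 8 overlapped. Il1b lay under the filter of a mean of at least 0.5 FPKM, and the 8 remaining genes entered limma's test on log2(FPKM + 0.5) over 16194 features. Tnf entered as the sum of the 4 rows described below. The row next to Lta, with a mean of 0.151 FPKM, lay under the filter by itself. None of the 8 passed at a Benjamini-Hochberg adjusted p under 0.05, where 0 of all features passed (0%). At an unadjusted p under 0.05, 1 of the 8 passed, against 472 of all features (2.91%), and groups without overlap occurred at 0.482% of all features. Since the genes were chosen with earlier results of these libraries known, these counts describe the genes and do not test them as a set.

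Arid5a encodes a protein that binds and stabilizes inflammatory transcripts such as that of interleukin-6. It was at 4.39, 3.94, 3.78, 4.52 and 5.23 FPKM in sham 1 to 5 and at 2.42, 3.30, 2.71, 3.57 and 2.86 FPKM in TBI 1 to 5. The highest injured library, TBI 4, thus lay just below the lowest sham library, sham 3. The means were 4.37 ± 0.568 and 2.97 ± 0.462 FPKM (SD, n = 5 each), a difference of -31.9%. On the log2(FPKM + 0.5) scale the difference was -0.49 (SE 0.12, 95% interval -0.76 to -0.22), with limma's adjusted p = 0.983 and rank 14 among the 16194 features by p. An exact two-sided permutation test of this gene alone gave p = 0.00794, the smallest value that 5 against 5 libraries allow. Groups without overlap always give that value, so it restates the lack of overlap and adds no support to it. Features lower after TBI without overlap made up 0.241% of those tested. The difference was below 0 in each of 23 alternatives, from -0.55 to -0.37, and adjusted p lay between 0.592 and 1.00. Without overlap between the groups, leaving out libraries or changing the pseudocount cannot reverse the sign. A change of filter, the fit without a mean trend and the replicate block left the difference at -0.49. Most of the 23 thus restate the lack of overlap.

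TBI 1, the library with the least Arid5a, also had the lowest score for neuronal markers, -0.57, while the other 9 libraries lay between -0.14 and 0.15. Other libraries did not share this order. TBI 3 and TBI 5, the next lowest in Arid5a, had neuronal scores of 0.13 and 0.10. Sham 4, with Arid5a at 4.52 FPKM, had the score of -0.14. A marker score is the mean of a list's log2 values, each centred over the 10 libraries. The score of 5 hippocampal subfield markers was also lowest in TBI 1, at -0.65, against -0.46 in sham 1 and -0.24 to 0.49 in the other 8. Of these 5 genes 0 had a higher mean after TBI (median log2 difference -0.35), and without TBI 1 it was 1 of 5 (median -0.19), with 0 past limma's adjustment and 0 at an unadjusted p under 0.05. Their part in the Arid5a value was not tested. Without TBI 1 the Arid5a difference was -0.43. In bulk tissue, fewer cells of a type and less RNA per cell cannot be told apart. The gene whose pattern over the 10 libraries was most like that of Arid5a, among 10836 named genes of at least 1 FPKM, was Efhd2, which encodes a calcium-binding protein (Pearson r = 0.91). It ran from 45.2 FPKM in TBI 1 to 99.5 in sham 5. The most similar genes named here and below have the highest of 10836 correlations over only 10 libraries. Their r is thus high by selection, a shared highest or lowest library comes with it, and no link was tested.

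**Figure D2:**
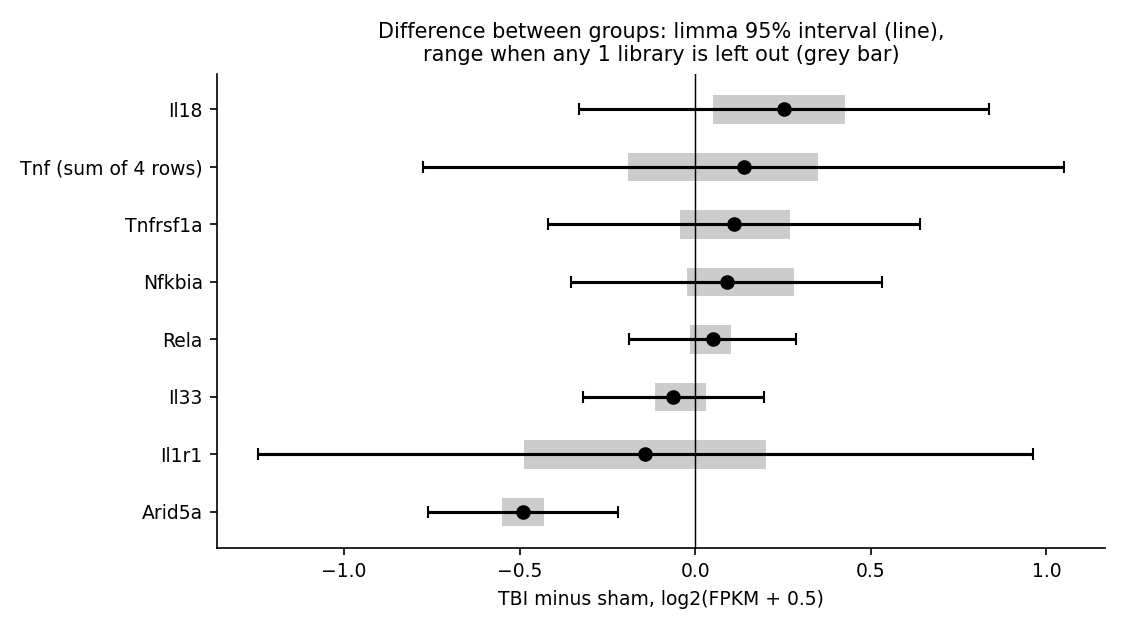
Difference between groups (horizontal axis, TBI minus sham in log2(FPKM + 0.5) units) for the 8 tested genes; dots with lines are limma's estimate and 95% interval, and grey bars the range when any 1 library is left out. The interval of Arid5a, -0.76 to -0.22, lies below 0, and the other 7 intervals include 0. Tnf is the sum of all rows with that symbol.

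Among the ligands, Il1b, the classical fever-inducing cytokine of activated microglia, was barely detected. It was at 0.0893, 0.115, 0.121, 0.244 and 0.217 FPKM in sham 1 to 5 and at 0.326, 0.0607, 0.124, 0.211 and 0.247 FPKM in TBI 1 to 5. The groups covered each other almost fully, with means of 0.157 ± 0.0686 and 0.194 ± 0.104 FPKM (SD, n = 5 each) and an exact two-sided permutation p of 0.548. With no filter on low values limma gave a log2 difference of 0.071 (95% interval -0.18 to 0.33, adjusted p = 0.974). At such levels the added 0.5 FPKM compresses differences, so this interval is narrow by construction.

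Il18, a cytokine of the same family that caspase-1 cleaves to its active form, was at 2.04, 2.20, 1.22, 2.68 and 2.23 FPKM in sham 1 to 5 and at 4.75, 2.71, 2.74, 1.36 and 1.92 FPKM in TBI 1 to 5. TBI 1, TBI 2 and TBI 3 lay above all sham libraries, and TBI 4 and TBI 5 within their range. The log2 difference was 0.25 (SE 0.26, 95% interval -0.33 to 0.84, limma's adjusted p = 0.983), and it was 0.051 without TBI 1. The most similar pattern was that of Il10rb, a subunit of the interleukin-10 receptor (r = 0.91, n = 10 libraries), which was also highest in TBI 1, at 5.60 FPKM.

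Il33, a nuclear protein that damaged cells release as an alarm signal and that glia produce in brain, was well above Il1b and Il18 in every library. It was at 12.4, 11.8, 12.5, 14.7 and 17.9 FPKM in sham 1 to 5 and at 14.4, 12.8, 13.4, 11.5 and 13.6 FPKM in TBI 1 to 5. The 5 injured libraries fell inside or just below the sham range, and sham 5 was the highest of all. The log2 difference was -0.063 (SE 0.12, 95% interval -0.32 to 0.19, limma's adjusted p = 0.983), and 0.031 without sham 5. Its pattern was most like that of Acsl3, an acyl-CoA synthetase (r = 0.92), which was likewise highest in sham 5, at 96.7 FPKM.

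The symbol Tnf stood on 4 rows, and their sum cannot be read as the level of 1 transcript. Row XLOC_013636 had a mean of 0.151 FPKM, XLOC_013631 of 5.31, XLOC_013633 of 149 and XLOC_013632 of 169. The last 2 made up 93.0 to 99.4% of the sum in every library. In the order of the table XLOC_013636 directly follows Lta, which is also the neighbour before Tnf in RefSeq's GRCr8 annotation. The neighbours after it differ, with Hspa1l after XLOC_013636 and Ltb after Tnf in GRCr8. The other 3 rows lie between Neu1 and Nfkbil1. In GRCr8 the genes just before Nfkbil1 are the class I histocompatibility gene RT1-CE1, Ddx39b and Atp6v1g2, and which transcripts these 3 rows hold was not tested.

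The row next to Lta was at 0.0351, 0.259, 0.213, 0.276 and 0.0651 FPKM in sham 1 to 5 and at 0.336, 0.0457, 0.125, 0.0954 and 0.0621 FPKM in TBI 1 to 5. Its groups overlapped, with an exact two-sided permutation p of 0.571, and like Il1b it was close to the bottom of the scale. On its own it lay under the filter and did not enter limma's test. Row XLOC_013631 was at 1.51, 3.77, 4.02, 2.505 and 4.89 FPKM in sham 1 to 5 and at 6.68, 12.1, 7.61, 6.21 and 3.81 FPKM in TBI 1 to 5. Of its injured libraries, 4 lay above all sham libraries, and TBI 5 lay within the sham range. Its log2 difference was 1.01 (SE 0.32, 95% interval 0.32 to 1.71), with limma's adjusted p = 0.988 over 16889 single rows, of which 2.82% had an unadjusted p under 0.05 and 1.34% were also higher after TBI. For the abundant rows the log2 difference was -0.13 (95% interval -1.37 to 1.11) at XLOC_013632 and 0.30 (-0.40 to 1.01) at XLOC_013633. The patterns most like theirs were those of Inmt (r = 0.97) and of the locus of the antigen transporters Tap1 and Tap2 (r = 0.96). For the sum of the 4 rows the log2 difference was 0.14 (SE 0.41, 95% interval -0.77 to 1.05, limma's adjusted p = 0.986), or -0.19 without TBI 1.

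**Figure D3:**
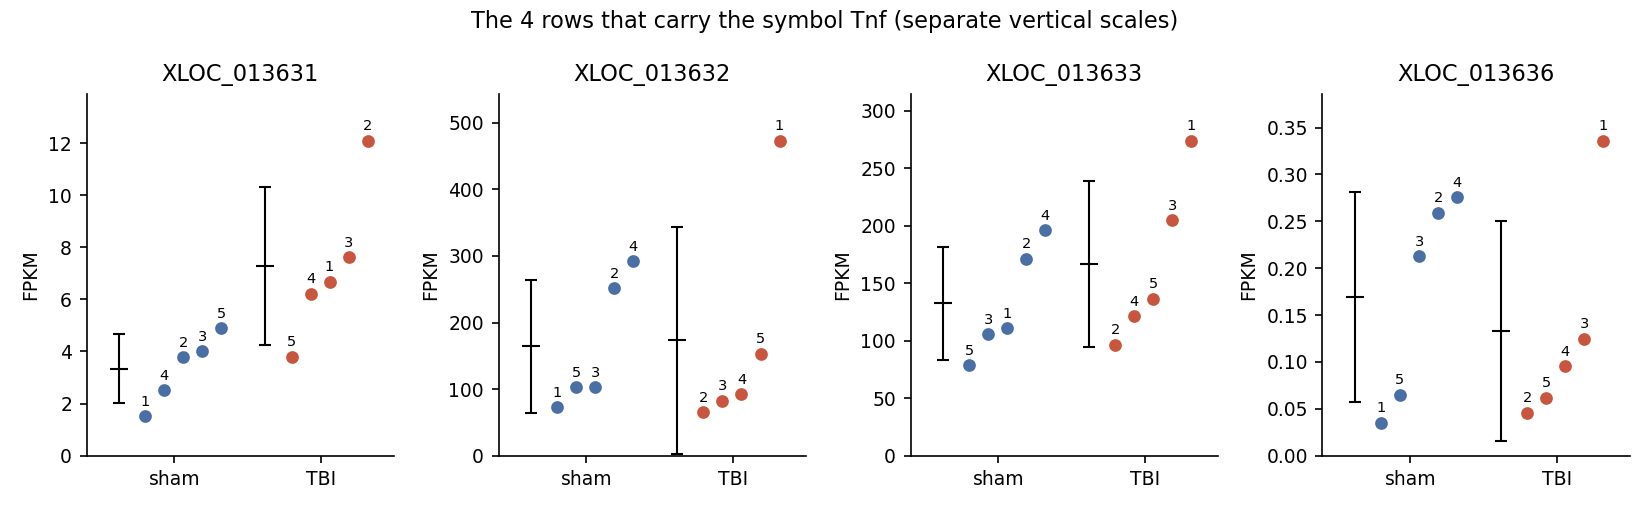
FPKM (vertical axis, from 0, a separate scale for each row) of the 4 rows that carry the symbol Tnf in 5 sham (blue) and 5 TBI (red) libraries, with replicate numbers and mean ± SD. The rows differ in level from a mean of 0.151 FPKM (XLOC_013636) to 169 FPKM (XLOC_013632), and TBI 1 is the highest library in 3 of the 4.

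The 2 receptors differed far more between libraries than between groups. Il1r1, which transmits the interleukin-1 signal, was at 1.04, 3.93, 1.51, 6.59 and 1.09 FPKM in sham 1 to 5 and at 6.003, 0.975, 1.65, 1.67 and 1.62 FPKM in TBI 1 to 5. Sham 2, sham 4 and TBI 1 stood apart from the other 7 libraries, and the highest library held 6.76 times the level of the lowest. The log2 difference was -0.14 (SE 0.50, 95% interval -1.25 to 0.96, limma's adjusted p = 0.990), and it was 0.20 without sham 4, 0.032 without sham 2 and 0.047 without TBI 2.

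Tnfrsf1a, the death-domain receptor for TNF, was at 4.53, 7.49, 5.61, 9.98 and 4.90 FPKM in sham 1 to 5 and at 10.6, 4.80, 7.43, 5.63 and 6.63 FPKM in TBI 1 to 5. The same 3 libraries were highest, and the groups overlapped over most of their range. The log2 difference was 0.11 (SE 0.24, 95% interval -0.42 to 0.64, limma's adjusted p = 0.983), and -0.042 without TBI 1. These values are the sum of 2 rows, of which the one between Scnn1a and Vwf gave 86.8 to 98.8% of the level.

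Rela encodes the transactivating subunit of the most common NF-kappaB dimer. It was at 8.67, 11.7, 9.97, 12.1 and 10.2 FPKM in sham 1 to 5 and at 12.5, 9.37, 10.99, 10.4 and 11.2 FPKM in TBI 1 to 5, a narrow range in which sham 2, sham 4 and TBI 1 were again highest. The log2 difference was 0.050 (SE 0.11, 95% interval -0.19 to 0.29, limma's adjusted p = 0.983), and -0.014 without sham 1.

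Nfkbia was at 13.49, 17.997, 14.3, 18.1 and 14.4 FPKM in sham 1 to 5 and at 18.8, 16.7, 9.51, 18.1 and 22.9 FPKM in TBI 1 to 5. The injured group held both the lowest library, TBI 3, and the highest, TBI 5, and 3 of its 5 libraries lay above all sham libraries. The log2 difference was 0.090 (SE 0.20, 95% interval -0.35 to 0.53, limma's adjusted p = 0.983). It was 0.28 without TBI 3, where Nfkbia passed at an unadjusted p under 0.05 but not after adjustment (limma's adjusted p = 0.970), and -0.024 without TBI 5. TBI 3 had the highest score for microglial markers, 0.59, against -0.24 to 0.16 in the other 9 libraries, and the part of this in the Nfkbia value was not tested. The most similar pattern was that of Ergic2, a protein of the early secretory route (r = 0.90), with its lowest value in TBI 3 and its highest in TBI 5.

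Il1r1, Tnfrsf1a, Rela and the Tnf sum went up and down together across libraries of both groups. In each of these 4, sham 2, sham 4 and TBI 1 all lay above the other 7 libraries, which held for 3.82% of the 16194 features. Among the 7, sham 3, TBI 3, TBI 4 and TBI 5 lay above sham 1, sham 5 and TBI 2 in Il1r1 (1.51 to 1.67 against 0.975 to 1.09 FPKM), in Tnfrsf1a (5.61 to 7.43 against 4.53 to 4.90) and in the Tnf sum (213 to 295 against 174 to 186). This complete order of 3 sets of libraries occurred at 0.661% of features. For the main Tnfrsf1a row alone the first step did not hold, since its lowest value in sham 2, sham 4 and TBI 1 was 7.06 FPKM and its highest in the other 7 was 7.34 FPKM. None of the 4 Tnf rows kept the complete order on its own. At XLOC_013633 the first step failed as well, with 171 FPKM as the lowest value in the 3 libraries and 205 FPKM as the highest in the other 7, so the order given for Tnf is that of the sum. Rela kept the first step and overlapped in the second. The sets were noticed in these data, follow marker scores of neighbouring tissue, and are no groups of the study.

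These sets are those of marker genes of neighbouring tissue. Sham 2, sham 4 and TBI 1 were set apart as the libraries high in matrix markers. The 7 libraries were divided by whether the choroid plexus score was positive. Both scores thus separate the sets by construction. The score of 9 matrix and meninges genes was 1.29 to 1.92 in sham 2, sham 4 and TBI 1 and -1.39 to -0.18 in the other 7. Col1a1, a fibrillar collagen chain of that list, was at 20.3, 34.3 and 30.5 FPKM in these 3 and at 1.54 to 3.54 FPKM elsewhere. Dcn of the same list did not separate them, at 25.5 FPKM in sham 2 and 27.8 FPKM in sham 1. Of the 11 matrix genes found by symbol Col1a2 was listed at 0 in all libraries, and the list summed to 53.3 to 522 FPKM (sham) and 57.5 to 653 FPKM (TBI). The score of 10 choroid plexus genes was 1.17 to 1.94 in sham 3, TBI 3, TBI 4 and TBI 5 and -3.34 to -2.21 in sham 1, sham 5 and TBI 2, with Ttr, the carrier protein transthyretin, at 9079 to 17771 against 34.5 to 421 FPKM. Of the 3 libraries high in matrix genes, sham 2 and TBI 1 had the highest choroid plexus scores of all, 2.37 and 3.02, and sham 4 had a low one, -2.82. All 10 choroid plexus genes had a higher mean after TBI, with a median log2 difference of 1.96, and 0 passed limma's adjustment or an unadjusted p under 0.05. The choroid plexus list summed to 103 to 32743 FPKM (sham) and 148 to 34256 FPKM (TBI), and none of the 11 genes found was at 0 in all libraries. Endothelial and pericyte scores were also highest in sham 2, sham 4 and TBI 1, at 0.22 to 0.57 against -0.26 to -0.055, and so were macrophage and neutrophil scores, at 0.38 to 0.62 against -0.49 to 0.18. The latter score covers 5 tested genes that did not all follow it. In sham 4 Mrc1 was at 5.36 FPKM, but S100a8 was at 0 and S100a9 at 0.446 FPKM. The part of these tissues and cells in the levels of the receptors was not tested. The genes most like Il1r1 and Rela were Fbln1, a matrix protein (r = 0.99), and Pdlim1 (r = 0.98), and those most like Tnfrsf1a and the Tnf sum were Dock6 (r = 0.99) and Pros1, the anticoagulant protein S (r = 0.98).

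**Figure D4:**
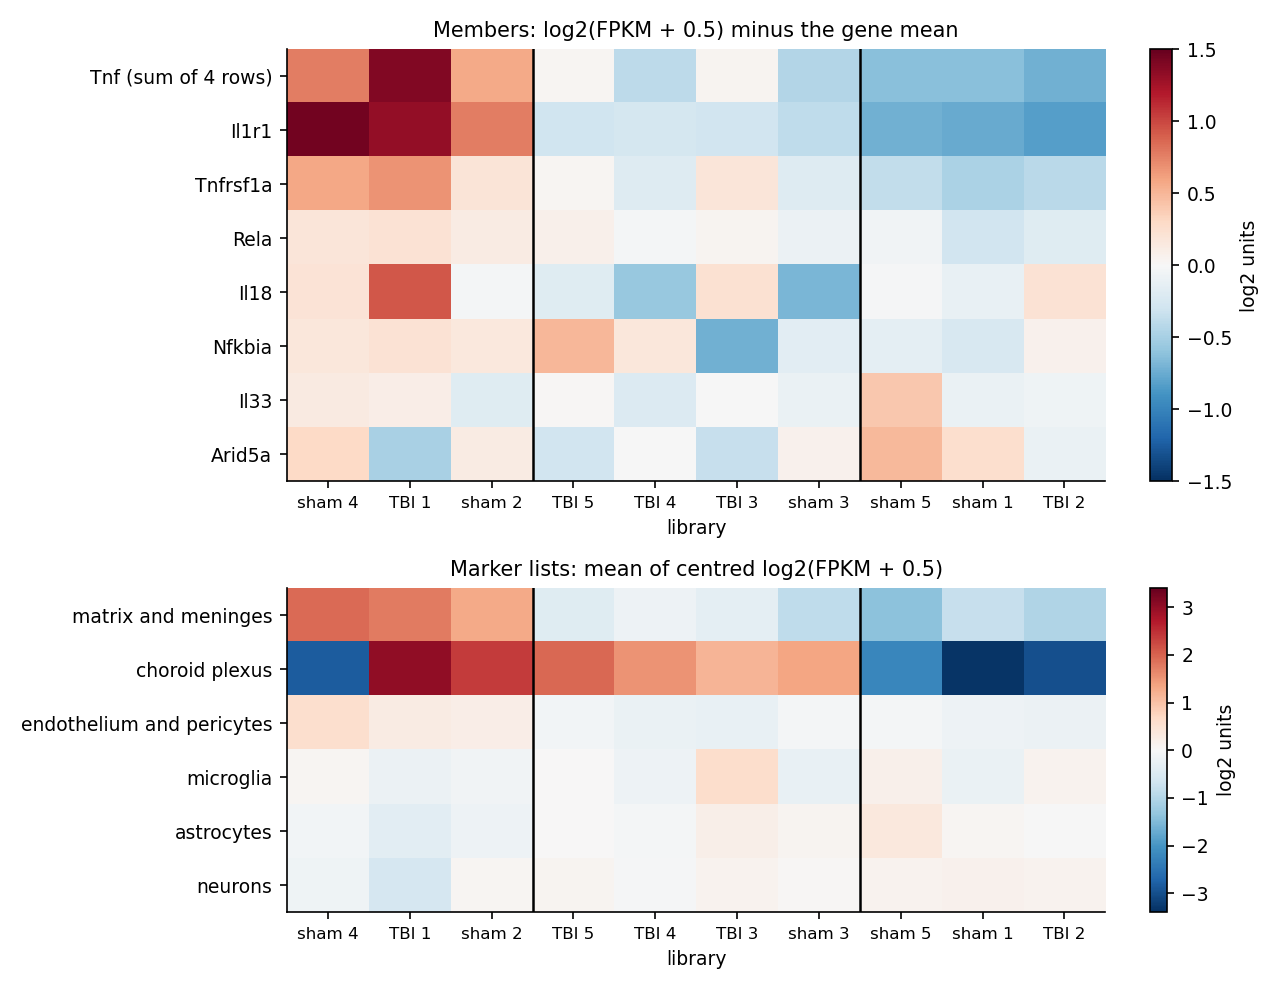
Upper panel: log2(FPKM + 0.5) of the 8 tested genes minus each gene's mean; lower panel: scores of 6 marker lists, on a wider colour scale; columns are the 10 libraries, and vertical lines separate those high in matrix markers (left), high in choroid plexus markers only (middle) and low in both (right). The Tnf sum, Il1r1 and Tnfrsf1a are red at the left and blue at the right, while Arid5a follows the sham and TBI labels instead.

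Because 3 libraries stood apart, correlations between these genes were computed over the other 7 as well. Over all 10 libraries 6 of 28 gene pairs passed a permutation test of Pearson's r after Benjamini-Hochberg adjustment, and these were the 6 pairs among Il1r1, Tnfrsf1a, Rela and the Tnf sum. Tnfrsf1a and Rela had r = 0.93 and Spearman's rho = 0.98 over the 10 libraries (permutation p = 0.00019 and 2e-05, adjusted p = 0.00133 and 0.00028). In both genes the 3 libraries lay above the other 7, so this correlation is not free of the library sets. Without the 2 libraries farthest from the median of Tnfrsf1a, sham 4 and TBI 1, r was 0.90, and with each group centred on its own mean it was 0.93. Over the 7 libraries r for these 6 pairs ran from 0.79 for Il1r1 and Rela to 0.96 for Tnfrsf1a and the Tnf sum. The 7 still include libraries high and libraries low in choroid plexus markers, a split that Il1r1, Tnfrsf1a and the Tnf sum followed. These correlations are therefore not free of the library sets either. With 7 libraries 0 of 28 pairs passed adjustment by the exact permutation test. The pair of Tnfrsf1a and the Tnf sum was at the threshold (exact permutation p = 0.00179, adjusted p = 0.050), with rho = 0.96 (exact permutation p = 0.00278, adjusted p = 0.0778). Nfkbia, Il33, Il18 and Arid5a were in none of the pairs that passed.

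Other genes of the route were taken from 5 lists with 99 symbols, of which 87 were found and 71 tested. Of these 71, 37 had a higher and 34 a lower mean after TBI, 0 passed limma's test after adjustment, and 2 had an unadjusted p under 0.05, which is 2.82% against the 2.91% of all features. Both were higher after TBI, as were 1.41% of all features. The median log2 difference over all features was 0.0013.

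For the interleukin-1 family 6 of 15 tested genes had a higher mean (median -0.040). The genes with the smallest p were Map3k7, a kinase that activates the inhibitor kinases, at 4.49 ± 1.24 FPKM in sham and 6.0007 ± 2.39 FPKM after TBI, Sigirr, a decoy-like receptor that dampens the signal, at 1.11 ± 0.257 and 0.894 ± 0.209, and Tab2, the adaptor of Map3k7, at 18.5 ± 1.14 and 19.5 ± 1.08 (SD, n = 5 each). The second ligand Il1a, the receptor antagonist Il1rn and the decoy receptor Il1r2 were under the filter, with means of 0.131, 0.182 and 0.0302 FPKM. Il1rap, the shared accessory chain of the receptors, was at 17.1 FPKM.

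For the TNF route 12 of 17 tested genes had a higher mean (median 0.071). Ripk1, a kinase at the receptor, averaged 2.19 ± 0.343 FPKM (sham) and 2.58 ± 0.439 FPKM (TBI), Birc2, a ubiquitin ligase, at 10.02 ± 0.698 and 11.4 ± 2.03, and Tnfaip8 at 9.36 ± 2.03 and 8.08 ± 1.11. In the NF-kappaB core 6 of 14 had a higher mean (median -0.017). Chuk, 1 of the 2 inhibitor kinases, was at 8.71, 9.75, 7.41, 6.76 and 7.36 FPKM in sham 1 to 5 and at 13.4, 8.66, 9.50, 9.57 and 9.48 FPKM in TBI 1 to 5. TBI 1 was the highest of the 10, and TBI 2 to TBI 5 lay below sham 2 and, but for TBI 2, above the other 4 sham libraries (log2 difference 0.32, SE 0.13, limma's adjusted p = 0.983). Nkiras1, which slows degradation of the inhibitor, was at 46.9 ± 1.94 and 41.1 ± 8.76 FPKM, and Nfkbib, a second inhibitor, at 9.47 ± 1.43 and 8.61 ± 0.716. TBI 1 was the lowest library for Nkiras1, at 26.7 FPKM, and the log2 difference of -0.22 was -0.074 without it. For Nfkbib the log2 difference of -0.12 was -0.046 without sham 2, and for Tnfaip8 that of -0.19 was -0.085 without sham 4.

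Of the genes that NF-kappaB is known to induce, 7 of 16 had a higher mean (median -0.079). Csf1, the microglial growth factor, was at 4.37, 3.87, 4.06, 4.41 and 3.70 FPKM in sham 1 to 5 and at 4.89, 4.59, 4.80, 5.19 and 4.72 FPKM in TBI 1 to 5. It was the 1 gene of the 71 whose groups did not overlap, as in 0.482% of all features in either direction and 0.241% in this one (log2 difference 0.22, SE 0.083, limma's adjusted p = 0.983, higher in 5 of 5 injured libraries). The adhesion molecule Vcam1 was at 12.0 ± 0.770 and 10.7 ± 0.959 FPKM, with 4 of 5 injured libraries below all sham libraries, and the survival factor Bcl2l1 at 36.9 ± 1.03 and 38.7 ± 0.765. Il6, Ccl2, Cxcl1, Cxcl2, Sele and Nos2 had means under 0.5 FPKM and were not tested. Of the genes listed as linked with Arid5a in transcript stability, whether on its side or against it, 6 of 9 had a higher mean (median 0.023). Zc3h12a, the nuclease that Arid5a opposes, was at 0.545 ± 0.147 and 0.682 ± 0.166 FPKM, Zfp36l1 at 15.5 ± 2.11 and 18.8 ± 9.86, and Elavl1 at 12.1 ± 0.602 and 12.7 ± 1.67. The higher mean of Zfp36l1 came from TBI 1, at 36.4 FPKM, and without it the log2 difference of 0.17 was -0.095.

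**Figure D5:**
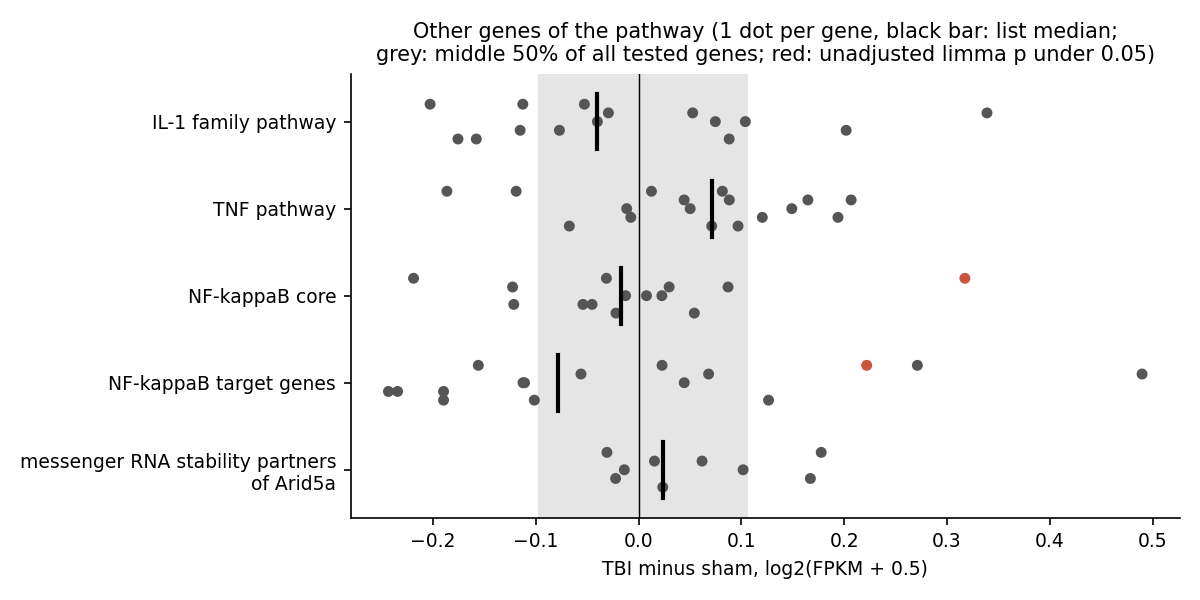
Log2 difference (horizontal axis, TBI minus sham in log2(FPKM + 0.5) units) of the 71 other tested genes of the route in 5 lists; each dot is a gene, black bars are list medians and the grey band holds the middle 50% of all tested features. The 2 red dots, with an unadjusted limma p under 0.05, are Chuk and Csf1, and all 5 medians lie inside the band.

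Markers of the tissue and of other cell types were read from 11 lists. Neuronal and hippocampal genes were abundant in every library, with 2595 to 4909 FPKM summed over 8 neuronal genes. Of these 8, 2 had a higher mean after TBI, and 5 without TBI 1. All 12 microglial genes had a higher mean after TBI, 0 passed limma's test after adjustment and 1 had an unadjusted p under 0.05, but without TBI 3 the mean was higher in 5 of 12 (median log2 difference -0.029, against 0.11 with it), with the sum at 233 to 311 FPKM in sham and 248.6 to 412 after TBI. Aif1 was at 19.2 to 31.03 FPKM (sham) and 23.2 to 36.8 FPKM (TBI), and Cx3cr1 at 10.9 to 19.1 and 11.1 to 23.8. Gfap of astrocytes was at 245 to 515 and 190.5 to 536 FPKM, and Cldn5 of endothelium at 61.3 to 82.4 and 45.3 to 54.3 FPKM, lower after TBI without overlap. Of 9 tested endothelial and pericyte genes 2 had a higher mean, 0 passed adjustment and 2 had an unadjusted p under 0.05. Over all features 2.91% had an unadjusted p under 0.05, and 0.241% were lower after TBI without overlap. The 7 macrophage and neutrophil genes found summed to 2.54 to 10.7 FPKM in sham and 3.42 to 9.03 after TBI, and none was at 0 in all libraries. Libraries summed to 523239 to 629660 FPKM, and the read depth behind these values is unknown.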

How the data were processed

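The authors deposited 1 FPKM value per locus and library for 25269 loci, with a status word beside each. All 13 loci of the 9 genes had the status OK in all libraries. Poly-A RNA was sequenced on an Illumina instrument, per the labels' protocols. The rn5 build is named per the submitters' processing notes, as are Cufflinks, Cuffdiff, Bowtie, Bowtie2, TopHat and TopHat2, each without a role or version. The annotation is not given in the sources used here. Upper quartiles were nearly equal, at 13.1 to 13.5 FPKM, in all 10 columns. No strand is recorded, so overlapping genes cannot be told apart.

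Loci of 1 symbol were summed, which affected 1352 symbols, and the 7177 loci without a symbol were kept singly. Values entered limma 3.58.1 (R 4.3.3, mean trend, two-sided) as log2(FPKM + 0.5), where features had a mean of at least 0.5 FPKM. The added constant makes differences of low genes look smaller. Significance meant a Benjamini-Hochberg adjusted p under 0.05. Single genes were also tested by exact permutation, and gene pairs by 100000 permutations. The limma step was tested on simulated data with noise independent between genes and libraries. That test does not cover libraries in which many genes move together, as some did here. Alternatives covered pseudocount, filter, summing, scaling, variance model, weights, a replicate block, marker scores as covariates and each library left out. Leaving out sham 2, sham 4 and TBI 1 together, leaving out each library in the marker counts, reading each Tnf row singly and correlating over 7 libraries were chosen after seeing the data. The genes and lists were chosen with earlier results of these data known. Named genes are the 9 found, the 3 of each list with the smallest p, the most similar gene of each, and 6 markers. Il1a, Il1rn, Il1r2, Il1rap, the untested targets and the Tnf rows were named after their values were seen.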

Additional observations from a re-analysis of the deposited data

Results flagged for a closer look

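In 45 genes or rows, each group of 5 libraries was checked for a value whose gap to the nearest other exceeded Dixon's 95% critical share of the group's range. Of these 90 groups 11 held such a value. Chance gives about 4.5 where groups are independent, which these are not: the Tnf sum stands beside its own rows, and several genes were picked for a pattern like that of another gene on the list, so the 11 are not a count of separate events. Each of the 11 was the highest value of the injured group and lay in TBI 1. Il1r1 was at 6.003 FPKM there, against 0.975 to 1.67 in the other injured libraries. The Tnf sum was at 754 FPKM against 174 to 295, its row XLOC_013632 at 473 against 65.3 to 153, and its row XLOC_013636 at 0.336 against 0.0457 to 0.125. Chuk was at 13.4 FPKM against 8.66 to 9.57, and Zfp36l1 at 36.4 against 13.4 to 15.1. Among genes with a pattern like that of a pathway gene, Il10rb was at 5.60 FPKM, Pros1 at 9.74, Fbln1 at 47.1 and Inmt at 6.27. The marker Col1a1 was at 30.5 FPKM against 2.39 to 3.54.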

How the results depend on the processing

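Arid5a and Il18 kept their direction in all 23 alternatives and passed adjustment in none. For Arid5a, whose groups did not overlap, most of these alternatives could not have changed the direction. With the choroid plexus score as covariate the log2 difference of the Tnf sum was -0.14, of Tnfrsf1a -0.030 and of Rela -0.021. With array weights it was -0.015 for the Tnf sum and -0.051 for Elavl1. For the most abundant Tnf row alone it was -0.13. Leaving out 1 library gave ranges of -0.19 to 0.35 for the Tnf sum (-0.0018 without sham 1), -0.49 to 0.20 for Il1r1, -0.042 to 0.27 for Tnfrsf1a, -0.014 to 0.10 for Rela, -0.11 to 0.031 for Il33, -0.024 to 0.28 for Nfkbia, -0.095 to 0.26 for Zfp36l1 and -0.0076 to 0.10 for Elavl1. Without sham 2, sham 4 and TBI 1 it was 0.20 for Il1r1 and -0.040 for Elavl1, and 2 features passed adjustment, neither of them of the pathway. Leaving out 1 library let 0 to 2 features pass, with 2 only without sham 4, and 1 to 2 of the pathway genes had an unadjusted p under 0.05, with 2 only without TBI 3. Features with an unadjusted p under 0.05 numbered 472, against 317 when the choroid plexus score was a covariate and 1318 under array weights. The cause of these shifts was not tested. Same-numbered sham and TBI libraries did not deviate together (correlations from -0.38 to 0.31), and with the replicate block 0 features passed, 0 of the pathway genes passed, 1 had an unadjusted p under 0.05, and Arid5a was at -0.49 with limma's adjusted p = 0.963. The unknown depth limits what can be said of genes under 0.5 FPKM such as Il1b.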
